A study of Mus musculus with 4 samples.

Results

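Cytosolic ribosomal protein genes code for the proteins that, with ribosomal RNA, build the large and the small subunit of the ribosomes that translate nuclear messages. RNA sequencing of embryonic mouse brain measured 26955 genes, and 77 of them are described here: 46 of the large subunit (Rpl and Rplp symbols) and 31 of the small subunit (Rps symbols and Rpsa). A gene was taken when the table called it protein coding, its symbol was Rpl or Rps followed by a number and at most a single letter a, x, l or y, or was Rplp0, Rplp1, Rplp2 or Rpsa, and it held at least 40 counts over all libraries. Of the 79 protein-coding genes with such a symbol, Rpl39l and Rpl3l, with 8 and 10 counts, were under that minimum. The member nearest above it was Rpl24 with 56 counts, and the next was Rpl13a with 1790. Rpl6l (3474 counts) and Rps4l (3458 counts) carry matching symbols but are annotated as pseudogenes and were left out, as were kinases of the Rps6k type, and Rps3a1, Fau and Rack1, which make further ribosomal proteins, lie outside the symbol rule.

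The mutant group (Gsdmd cKO-Nes, here cKO) carried a floxed Gsdmd gene, GSDMDfl/fl, with Nestin-Cre, and the control group was labelled WT. Cre from the Nestin promoter acts in neural progenitor cells, and the deletion is inherited by the cells they form. Cells of other origin in the same tissue, such as blood and microglial cells, are taken to keep the gene, which was not tested. All animals were C57BL/6 embryos at E13. The labels give brain as the tissue and the paper describes cortex and Gsdmd fl/fl controls. Each group had 2 libraries, cKO 2 and cKO 6 against WT 4 and WT 5, made from 2 µg of total RNA each. No source used here says that they came from separate mice. A p-value thus covers only spread between libraries, which the test estimates for each gene partly from the other tested genes. That spread may be technical for the cKO libraries, whereas Xist and Y-linked counts show that WT 4 and WT 5 came from different animals (Xist 1 and 7640, Eif2s3y 1014 and 4). The deposited whole-number counts totalled 16962553 to 18205945 per library.

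Gsdmd itself, the gene of a pore-forming protein of pyroptosis and the target of the deletion, held 54 and 43 counts in WT 4 and WT 5 and 13 and 7 in cKO 2 and cKO 6, with a log2 fold change of -2.34 and a standard error (SE) of 0.40 (edgeR adjusted p = 0.0846). Genes were compared with edgeR's quasi-likelihood test on TMM-scaled counts, with Benjamini-Hochberg adjustment over the 15804 genes that passed the filter on low counts, and a gene was called at an adjusted p under 0.05. Forebrain and neural markers (Emx1, Pax6 and others) summed to 2687 to 3420 CPM (read counts relative to a fixed library size) in every library. Of these 9 markers, 8 had a log2 fold change above 0 and 1 below 0, and 0 were called. For 5 of them both cKO libraries lay above both WT libraries, against 16.9% of all tested genes. Choroid plexus markers, from the secretory epithelium of the ventricles, summed to 179 CPM in WT 5, against 19.0 in WT 4, 5.67 in cKO 2 and 6.75 in cKO 6. Of the 7 tested, 1 was called, lower in cKO, against 0.196% of all tested genes. Erythroid markers summed to 693 and 1040 CPM in the WT libraries and to 530 and 570 CPM in the cKO libraries. All 10 had a log2 fold change below 0, and 0 were called. For 8 of them both cKO libraries lay below both WT libraries, against 20.3% of all tested genes. An unadjusted edgeR p was under 0.05 for 8, against 7.11% of all tested genes. Of 11 tested microglia and macrophage markers, 9 had a log2 fold change below 0 and 2 above 0, and 0 were called. With WT 5 left out, 0 members were called, as were 0 of all 16419 genes then tested, and the part of these cells in the values given here was not tested. In bulk RNA fewer cells of a type and less RNA per cell cannot be told apart.

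A ribosome needs each of its proteins in about equal number, and proliferating progenitor cells make ribosomes at a high rate. In vertebrates the messages of ribosomal proteins typically begin with a C followed by a run of C and T, the 5′ terminal oligopyrimidine (TOP) motif, through which the mTORC1 kinase and the RNA-binding protein LARP1 control their translation. These messages have also left many processed copies in the mouse genome, which arose when a spliced message was copied back into DNA and which often keep nearly the same letters as the parent gene.

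At the exact annotated start base some members, less than the larger part, show a run of C and T in the genome sequence. RefSeq promoter windows on GRCm38.p6, from 250 bases before to 50 bases from the start on, matched 57 of the 77 members. An unbroken run of at least 6 C or T that covers the first transcribed base was present in 29.8% of these windows, against 7.25% of all 32851 windows. A run of that length that reached within 10 bases of the start on either side was present in 57.9% of the member windows and 30.0% of all. The share thus depends on how exactly the start is annotated. The first base was C in 33.3% of the member windows and in 16.3% of all. Windows of 41 bases centred on the start are shown for members of each subunit, with the run in capitals, as examples of members with such a run. They were taken from the members with the longest runs of their subunit. The first transcribed base is T in Rpl7a and Rpl27a and C in Rps10 and Rps6, so the start of the first pair as annotated here is not that of the motif as defined.

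Rpl7a: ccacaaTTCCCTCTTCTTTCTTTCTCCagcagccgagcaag
Rpl27a: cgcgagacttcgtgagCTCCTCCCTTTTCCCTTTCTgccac
Rps10: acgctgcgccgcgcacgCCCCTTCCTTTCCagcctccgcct
Rps6: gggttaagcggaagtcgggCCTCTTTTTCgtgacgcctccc

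The windows lie at chr2:26910787-26910827 on the plus strand (Rpl7a), chr7:109519175-109519215 on the plus strand (Rpl27a), chr17:27635224-27635264 on the minus strand (Rps10) and chr4:86857347-86857387 on the minus strand (Rps6), and the first transcribed base is the 21st letter of each. The runs are 21, 20, 13 and 10 bases long. They begin at -14, -4, -3 and -1 relative to the first transcribed base, so part of each run lies before the annotated message. The letters CCGGAAGT, searched on both strands as the core of sites for factors of the ETS family, were found in 21.1% of the member windows and in 3.89% of all windows. AAGATGGC, searched likewise as the core of YY1 sites, was found in 7.02% against 2.75%. CACGTG, the E-box of MYC-type factors, was found in 8.77% against 7.15%, and TATAA in 26.3% against 24.9%. These matches describe letters in a window and say nothing of binding.

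Members made up 4.85% and 4.79% of all counts in WT 4 and WT 5 and 4.86% and 4.72% in cKO 2 and cKO 6. The groups overlapped (exact permutation test, two-sided, p = 1, where 2 against 2 libraries cannot give less than 0.333). Large subunit genes took 2.77% and 2.73% of counts in WT 4 and WT 5 and 2.76% and 2.71% in cKO 2 and cKO 6, and small subunit genes took 2.08%, 2.06%, 2.09% and 2.00% in the same order. The ratio of large to small subunit counts was 1.33 in WT 4, 1.33 in WT 5, 1.32 in cKO 2 and 1.36 in cKO 6, so the 2 WT libraries lay between the 2 cKO libraries (exact permutation test, two-sided, p = 1). Scaled by TMM, the summed level was 48366 ± 18.7 CPM (SD, n = 2) in WT and 47823 ± 62.4 CPM in cKO, 1.12% lower with no overlap of the groups (exact permutation test, p = 0.333, the smallest possible). With DESeq2's size factors that difference was 0.330% and the groups overlapped.

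Levels of the members' own rows differed widely between members and little between libraries. The rows of 32 members overlap another row, and no source used here says how reads that match several places were handled. Levels of different members are thus not strictly comparable. The mean level was between 100 and 1000 CPM for 61 members, at or above 1000 CPM for 11 and below 100 CPM for 5 (Rpl24, Rpl13a, Rpl23a, Rpl35 and Rps27l). The highest library was less than 1.2 times the lowest for 70 of the 77 members. The exceptions included Rpl24, Rps2, Rplp0, Rplp2, Rpl36 and Rpl13a. The median absolute log2 difference over the members was 0.061 between WT 4 and WT 5, 0.058 between cKO 2 and cKO 6, and 0.037 between the group means. A group mean averages 2 libraries and varies less than a single library, so a smaller last value needs no explanation by genotype. For the 7372 tested genes at least as high as the second-lowest member the same medians were 0.14, 0.13 and 0.098. These genes reach down to the level of Rpl13a (25.4 CPM), whereas most members were above 100 CPM. The comparison was thus not matched for level.

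**Figure D1:**
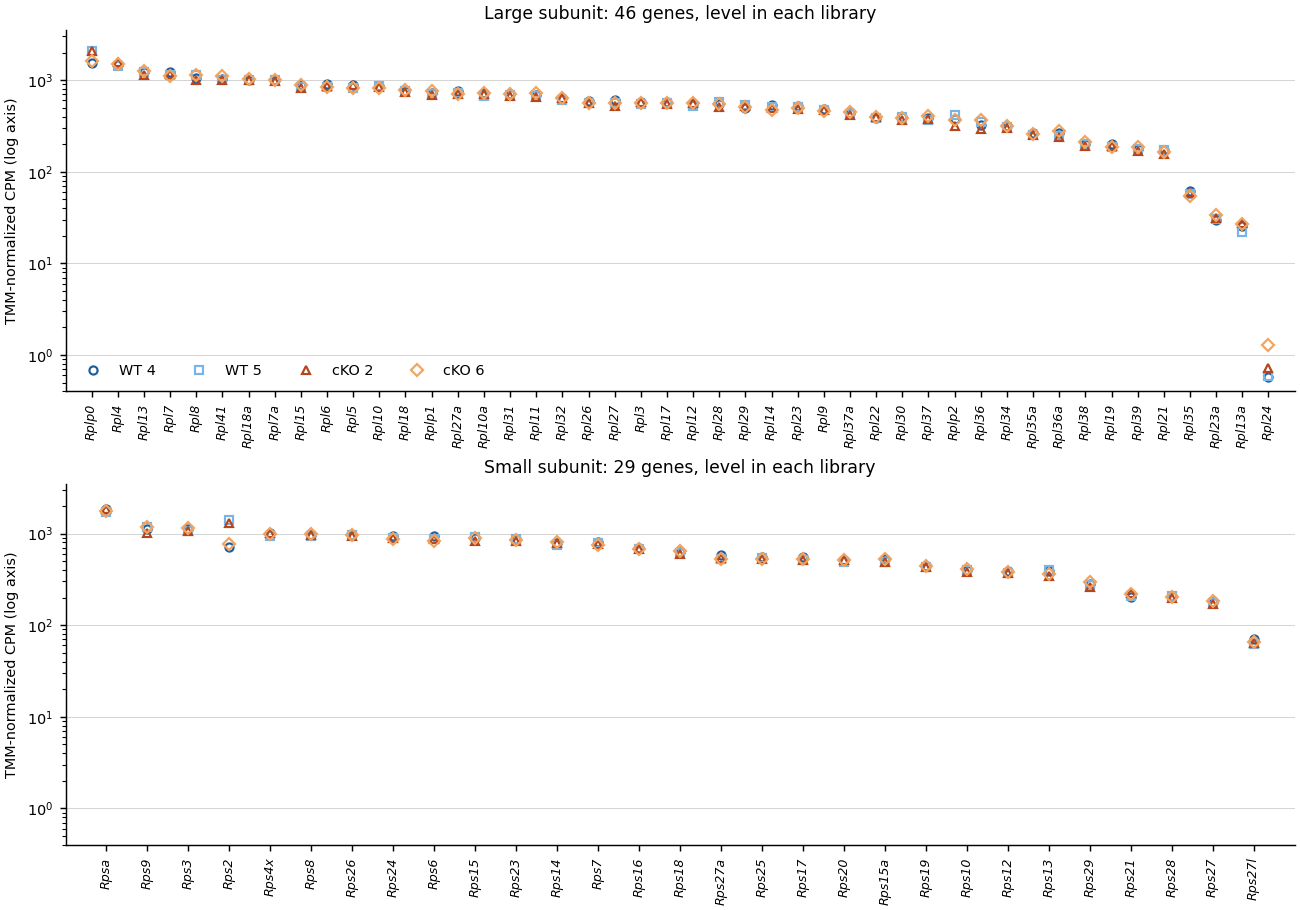
TMM-normalized CPM (vertical log axis) of each large (upper panel) and small (lower panel) subunit gene, ordered by mean level, with a symbol for each of the 4 libraries. The 4 symbols lie on each other for most genes, Rps2 and Rplp0 are high in WT 5 and cKO 2 and low in WT 4 and cKO 6, and Rpl24 stands below 2 CPM in every library. All 46 large and 29 of the 31 small subunit genes are drawn.

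No member passed the test between the genotypes. Of the 77 members, all of which passed the filter, 0 were called by edgeR, against 0.202% of all tested genes (32 of 15804). None was higher in cKO, against 0.00633% of all tested genes, none was lower, against 0.196%, and 0 had an unadjusted p under 0.05, against 7.11% of all tested genes. DESeq2's Wald test, edgeR's likelihood ratio test and limma-voom each called 0 members, with 0 at an unadjusted p under 0.05. The smallest adjusted p of any member by edgeR's quasi-likelihood test was 0.786. The median log2 fold change of cKO over WT was -0.018 over the large subunit genes, -0.017 over the small subunit genes and -0.012 over all tested genes. The fitted value was above 0 for 17 and below 0 for 29 large subunit genes, and above 0 for 11 and below 0 for 20 small subunit genes. The 2 cKO libraries lay beyond the 2 WT libraries for 24 members (31.2%), against 37.2% of all tested genes, 6 of them higher in cKO (16.9% of all tested genes) and 18 lower (20.3% of all tested genes).

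A p above the threshold does not show that levels were equal, and the interval of each gene bounds its change. The 95% interval of the change lay within a 1.5-fold rise or fall for 75 members and reached beyond it for Rpl24 and Rps2. The median standard error was 0.11 on the log2 scale, and the fitted change was under 0.1 in absolute value for 69 members. The test draws on the spread of all tested genes, so a standard error or interval does not rest on the gene's own libraries alone.

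**Figure D2:**
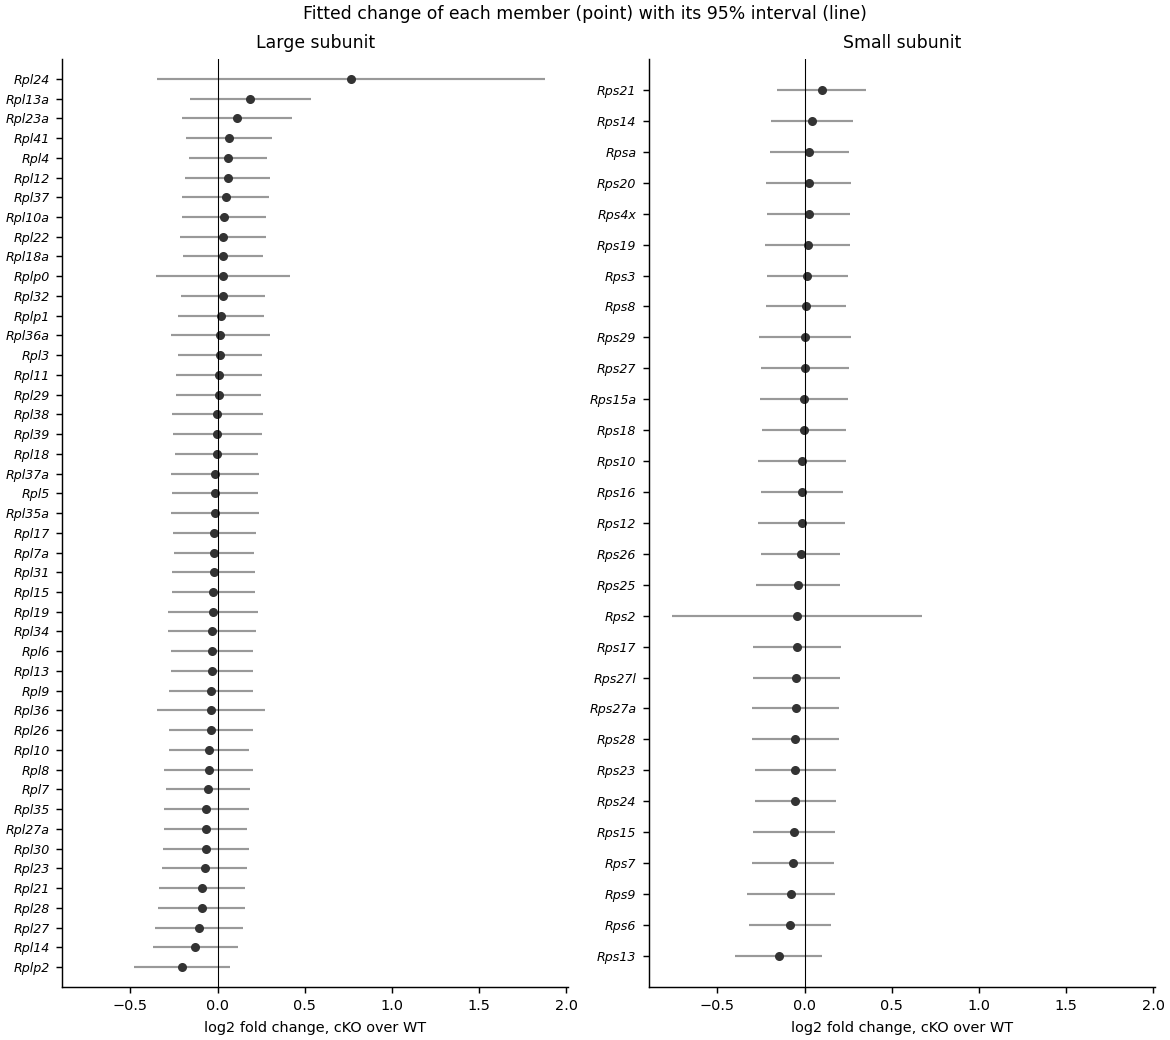
Fitted log2 fold change of cKO over WT (horizontal axis) of each large (left) and small (right) subunit gene, with its 95% interval as a line. All 46 large and 29 of the 31 small subunit genes are drawn, every interval holds 0, and the widest belong to Rpl24 (-0.35 to 1.88) and Rps2 (-0.76 to 0.68).

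The ribosomal stalk, the flexible arm of the large subunit that recruits translation factors, is built from Rplp0 with Rplp1 and Rplp2. Rplp2 had the smallest p of all members, with 380 and 411 CPM in WT 4 and WT 5 and 319 and 368 CPM in cKO 2 and cKO 6. The groups did not overlap, by a narrow margin between WT 4 and cKO 6, and the log2 fold change was -0.20 (SE 0.12, 95% interval -0.48 to 0.07, edgeR adjusted p = 0.786). Its partner Rplp1 was at 730 and 706 CPM in WT 4 and WT 5 and at 694 and 760 CPM in cKO 2 and cKO 6. These groups overlapped, with a log2 fold change of 0.018 (SE 0.11).

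The genes of proteins with a known role in sensing ribosome assembly or in growth signalling had similar levels in all libraries. Rpl5 and Rpl11 bind 5S RNA and, when assembly fails, hold back Mdm2, the protein that degrades p53. Rpl5 was at 890 and 830 CPM in WT 4 and WT 5 and at 891 and 811 CPM in cKO 2 and cKO 6, with a log2 fold change of -0.015 (SE 0.11). Rpl11 was at 693 and 677 CPM in WT 4 and WT 5 and at 657 and 721 CPM in cKO 2 and cKO 6, with a log2 fold change of 0.0081 (SE 0.11). In both genes the WT values of the gene's own row lay between the cKO values. With processed copies added they did not. Rpl5 was then at 973 and 891 CPM in WT 4 and WT 5 and at 949 and 872 CPM in cKO 2 and cKO 6. Rpl11 was then at 747 and 731 CPM in WT 4 and WT 5 and at 707 and 731 CPM in cKO 2 and cKO 6. The copies of Rpl11 held 932 and 905 counts in WT 4 and WT 5 and 916 and 181 in cKO 2 and cKO 6. Rps19, which is mutated in many people with Diamond-Blackfan anaemia, was at 438 and 427 CPM in WT and at 433 and 443 CPM in cKO 2 and cKO 6. Rps6, the substrate of the S6 kinases downstream of mTORC1, was at 932 and 878 CPM in WT 4 and WT 5 and at 872 and 837 CPM in cKO 2 and cKO 6. The 2 cKO values of Rps6 were the lowest, by less than the gap between the WT libraries, and the log2 fold change was -0.083 (SE 0.10, edgeR adjusted p = 0.912).

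Among the other large subunit genes of small p, Rpl24, whose protein joins the particle late in assembly in yeast, held only 10 and 10 counts in WT 4 and WT 5 and 13 and 23 counts in cKO 2 and cKO 6. Its log2 fold change of 0.77 (SE 0.49, edgeR adjusted p = 0.813) rests on these few reads and was 0.22 when the counts of its processed copies were added, an alternative chosen after seeing the data. Rpl13a, whose introns hold several small nucleolar RNA genes, was at 25.6 and 21.9 CPM in WT 4 and WT 5 and at 27.4 and 26.7 CPM in cKO 2 and cKO 6. Both cKO libraries were higher, with a log2 fold change of 0.19 (SE 0.15, edgeR adjusted p = 0.858). Rpl14 was at 540 and 514 CPM in WT 4 and WT 5 and at 491 and 473 CPM in cKO 2 and cKO 6. Both cKO libraries were lower, with a log2 fold change of -0.13 (SE 0.11, edgeR adjusted p = 0.865).

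Among small subunit genes of small p, Rps13 was at 393 and 397 CPM in WT 4 and WT 5 and at 346 and 366 CPM in cKO 2 and cKO 6, with a log2 fold change of -0.15 (SE 0.11, edgeR adjusted p = 0.844). Rps21 was the other way, at 201 and 209 CPM in WT 4 and WT 5 and at 222 and 217 CPM in cKO 2 and cKO 6, with a log2 fold change of 0.097 (SE 0.11). These members were chosen by their small p, so the separation of their groups is given as a description.

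Rpl10, Rps4x, Rpl36a and Rpl39 lie on the X chromosome. Rpl10, which lies close to the peptidyl transferase centre, was at 859 and 860 CPM in WT and at 837 and 826 CPM in cKO 2 and cKO 6. Rps4x, a small subunit protein with a Y-linked partner in humans, was at 1026 and 948 CPM in WT 4 and WT 5 and at 1021 and 985 CPM in cKO 2 and cKO 6. Rpl36a was at 265 and 242 CPM in WT 4 and WT 5 and at 238 and 275 CPM in cKO 2 and cKO 6, and Rpl39, which lines the exit tunnel, was at 177 and 178 CPM in WT and at 170 and 185 CPM in cKO 2 and cKO 6. WT 5 alone held Xist, the RNA of the inactive X, at a high count (7640, against 1, 3 and 12 in WT 4, cKO 2 and cKO 6), and its summed level of these X-linked members was 2229 CPM against 2265 to 2327 CPM in the other libraries.

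Compared per length, as CPM per kilobase of merged exons, the highest large subunit genes were Rplp1 (1448), Rplp0 (1100) and Rpl41 (885), whose product is among the smallest proteins known, and the highest small subunit genes were Rps15 (1392), Rps23 (676), a protein of the decoding centre, and Rps26 (621). The lowest were Rpl24 (0.769) and Rpl13a (12.01) in the large subunit and Rps27l (80.7) and Rps15a (81.1) in the small subunit. Merged exons include those of minor transcripts, so the level of a gene with a long rare transcript is understated on this scale. Counts in processed copies and the handling of overlapping rows also limit such a ranking. Of these genes Rplp0, Rpl24 and Rpl13a are among the exceptions named above, whose highest library was at least 1.2 times the lowest. Rpl41 was at 1023 and 997 CPM in WT 4 and WT 5 and at 993 and 1120 CPM in cKO 2 and cKO 6. Rps15 was at 885 and 906 CPM in WT 4 and WT 5 and at 830 and 887 CPM in cKO 2 and cKO 6. Rps23 stood at 834 to 878 CPM, Rps26 at 948 to 976 CPM and Rps15a at 491 to 526 CPM over the 4 libraries. Rpsa, the small subunit protein also known as the laminin receptor, was at 1838 and 1715 CPM in WT 4 and WT 5 and at 1864 and 1755 CPM in cKO 2 and cKO 6, with overlapping groups.

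Rps27l is a paralogue of Rps27 and a known target of p53. It was at 71.2 and 62.6 CPM in WT 4 and WT 5 and at 63.8 and 65.7 CPM in cKO 2 and cKO 6, and Rps27 was at 179 and 173 CPM in WT and at 170 and 181 CPM in cKO 2 and cKO 6. The groups overlapped for both, with log2 fold changes of -0.047 (SE 0.11) and 0.00099 (SE 0.11).

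Among the members, Rps2 and Rplp0 split the libraries in a way that crossed the genotypes, and Rps2 was singled out after its values were seen. Rps2, a protein of the small subunit near the mRNA entry channel, held 12307 counts in WT 4, 23834 in WT 5, 23645 in cKO 2 and 13634 in cKO 6. Its levels were 706 and 1419 CPM in WT 4 and WT 5 and 1303 and 760 CPM in cKO 2 and cKO 6, so WT 5 and cKO 2 were close to each other and far from the remaining pair. Rplp0, the base of the stalk, showed the same order at 1520 and 2093 CPM in WT 4 and WT 5 and 2078 and 1609 CPM in cKO 2 and cKO 6. The groups overlapped fully for both genes, with log2 fold changes of -0.042 (SE 0.32, edgeR adjusted p = 0.990) and 0.029 (SE 0.17, edgeR adjusted p = 0.988).

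The copies with the most counts showed the opposite order. Rps2-ps13, an annotated processed pseudogene at chrX:52898588-52899469, held 7590 counts in WT 4, 79 in WT 5, 72 in cKO 2 and 9064 in cKO 6. Gm8730, a processed copy of Rplp0 at chr8:102864845-102865798, held 7372, 208, 209 and 7972 counts in the same order, and Gm9625, a further copy of Rplp0 at chr13:67810246-67811200, held 985, 16, 20 and 1232. The libraries low in the parent gene were the ones high in the copy, in each genotype. Not every copy did so, since Rps2-ps6, with far fewer counts, held 95 and 186 in WT 4 and WT 5 and 170 and 86 in cKO 2 and cKO 6, the order of its parent, and Gm11249, also a copy of Rps2, held 60, 108, 135 and 85. Added to its copies, Rps2 stood at 1164 and 1454 CPM in WT 4 and WT 5 and at 1336 and 1289 CPM in cKO 2 and cKO 6, and the highest library was then 1.25 times the lowest instead of 2.01 times. For Rplp0 with its copies the levels were 2004 and 2107 CPM in WT 4 and WT 5 and 2090 and 2127 CPM in cKO 2 and cKO 6, and that ratio was 1.06 instead of 1.38.

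**Figure D3:**
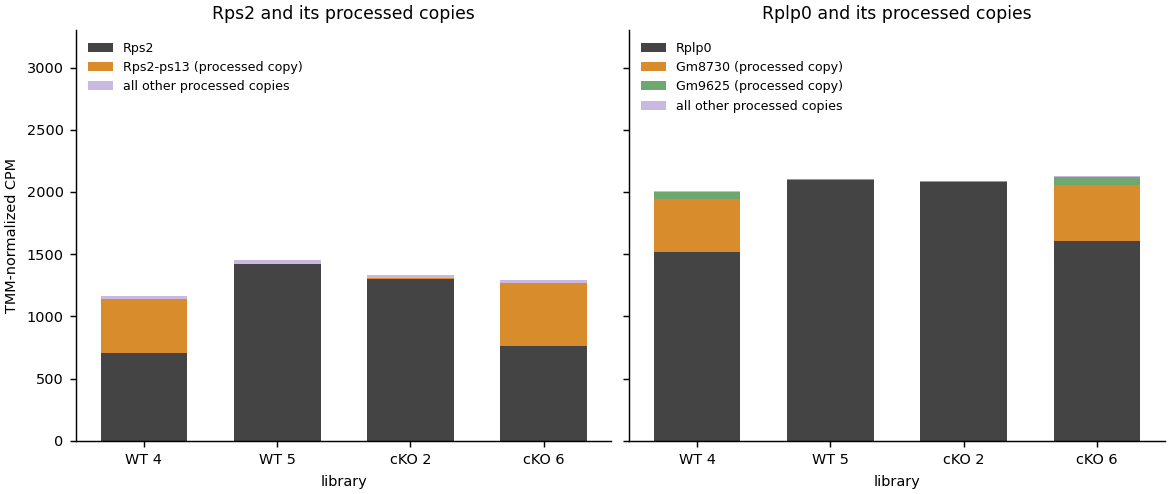
TMM-normalized CPM (vertical axis, stacked from 0) of Rps2 (left) and Rplp0 (right) and of their annotated processed copies in each of the 4 libraries. Rps2-ps13, Gm8730 and Gm9625 are visible only in WT 4 and cKO 6, where the parent gene is lower, and the stacked totals differ less between libraries than the parent alone.

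The parent and its copy are nearly alike in sequence, and the stretches shown carry the letters by which a read can be assigned to either. Over the whole coding sequence Rps2-ps13 differs from Rps2 at 7 of 879 aligned bases (99.2% identity). A stretch of 60 bases is shown for each, from coding base 25 to 84, with the differing bases in capitals and positions counted from the first base of the coding sequence. The changes from parent to copy are T60A and A84G.

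Rps2: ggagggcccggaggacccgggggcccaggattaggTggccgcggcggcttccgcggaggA
Rps2-ps13: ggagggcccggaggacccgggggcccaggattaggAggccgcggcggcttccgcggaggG

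The Rps2 letters are spliced coding sequence of the gene at chr17:24718116-24721929 on the plus strand, and those of the copy lie at chrX:52898612-52898671 on the plus strand, both on GRCm38. Gm8730 differs from Rplp0 at 12 of 951 aligned bases (98.7% identity). Coding bases 388 to 447 are shown in the same way, with the changes A390G, A393G and A447T from parent to copy.

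Rplp0: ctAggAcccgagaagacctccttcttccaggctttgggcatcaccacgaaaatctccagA
Gm8730: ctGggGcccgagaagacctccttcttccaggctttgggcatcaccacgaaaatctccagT

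The gene Rplp0 is at chr5:115559467-115563727 on the plus strand, and the printed letters of Gm8730 lie at chr8:102865352-102865411 on the minus strand. Each stretch was chosen as the 60 bases with the most differences between parent and copy. Even there only 2 or 3 letters tell the parent from the copy, and no other such stretch holds more. No source used here says how reads that match several places were handled. Whether reads were placed on the parent in some libraries and on the copy in others was not tested, since only the counts were used. The division did not follow the Xist count, which was high in WT 5 alone.

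Other members also have copies with counts. GENCODE vM21 holds 960 processed pseudogenes with at least 90% identity to a member over at least 80% of its coding sequence, and 476 of them have a row in the deposited table. At least 1 such copy exists for 73 members, and those without any include Rpl8, Rplp2 and Rps3. Rpl21 had the most, with 76. The copies held 311320 counts, 8.43% of the counts of members and copies together. That share was 9.31% in WT 4, 7.57% in WT 5, 7.50% in cKO 2 and 9.29% in cKO 6, the division seen for Rps2 and Rplp0. Without these 2 genes and their copies it was 8.01%, 8.02%, 7.94% and 7.81% in the same order.

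Copies held more than 10% of the sum of gene and copies for 21 members and less than 1% for 20. For Rpl23a the share was 85.2%, for Rpl24 it was 75.1% and for Rpl21 it was 53.3%, so in these 3 genes the copies held more counts than the gene itself. It was 46.7% for Rpl3, which shapes the peptidyl transferase centre, 36.9% for Rps10 and 34.3% for Rpl23. The median share was 5.48% over large and 2.02% over small subunit genes. The low levels of Rpl24 and Rpl23a given above are levels of the gene's own row. The copies of Rpl24 held only 169 counts. With copies added Rpl24 stood at 2.98 and 2.92 CPM in WT 4 and WT 5 and at 2.97 and 3.90 CPM in cKO 2 and cKO 6. Rpl23a then stood at 209 and 220 CPM in WT 4 and WT 5 and at 206 and 213 CPM in cKO 2 and cKO 6. How many reads of these genes were placed on copies was not tested. With the counts of all copies added to their parent, 0 of 77 members were called by edgeR and 0 had an unadjusted p under 0.05.

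**Figure D4:**
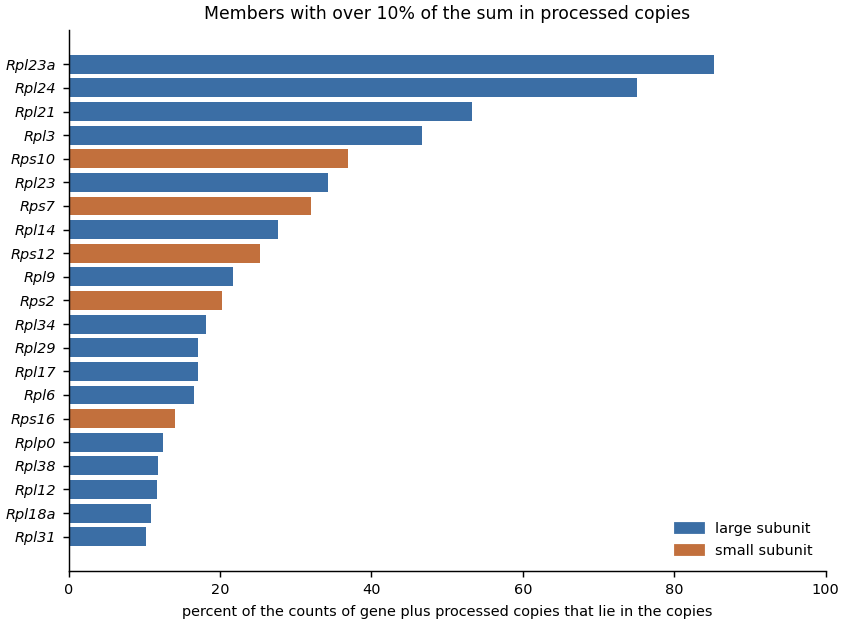
Percent of the counts of a gene plus its processed copies that lie in the copies (horizontal axis from 0 to 100), for the 21 members above 10%, large subunit in blue and small subunit in orange. Rpl23a, Rpl24 and Rpl21 have the larger part of their counts in copies.

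The members were also described by properties that the choice of genes did not use. Coding sequences had a median length of 475.5 bases in the large and 438 bases in the small subunit, and a median GC content of 52.8% and 52.7%. Members lie on 19 chromosomes, 14 of them on chromosome 7, and 29 members hold 56 small nucleolar RNA genes within their bounds. Rpl35 overlaps a gene with more counts than its own, and no source used here says whether counting used the strand, without which such reads cannot be divided between the genes. Across the 74 members other than Rps2, Rplp0 and Rpl24, the deviation of a library from the gene's mean correlated with GC content at r = -0.41 in WT 4, 0.19 in WT 5, -0.24 in cKO 2 and 0.36 in cKO 6. These correlations are across genes of the same library, which are not independent, and the signs differed between libraries of a genotype. The correlation of the log2 fold change with GC content over the same genes was 0.088. Members with the run of C and T at the start (17 genes) had a median log2 fold change of -0.024, with 2 above 0 and 15 below 0. The 40 members with a window and no such run had -0.016, with 15 above 0 and 25 below 0. Of all tested genes 7515 were above 0 and 8289 below 0. None of either was called.

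Mitochondrial ribosomal proteins (Mrpl and Mrps symbols), which are encoded in the nucleus and build the separate ribosomes of mitochondria, were set beside the members for comparison. All 77 of them were tested and 0 were called by edgeR, with 0 at an unadjusted p under 0.05. Their median log2 fold change was -0.040, and their values ran from -0.27 to 0.27. The groups did not overlap for 25 of them (32.5%), 4 higher and 21 lower in cKO, and for 24 of the members (31.2%), against 37.2% of all tested genes. Their summed level was 3811 and 3841 CPM in WT 4 and WT 5 and 3661 and 3758 CPM in cKO 2 and cKO 6.

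Genes around the ribosome were counted in lists of known function, and edgeR called 0 of the 139 tested genes of these lists. Of the 7 tested ribosomal proteins outside the symbol rule (Fau, Rack1 and others) 0 were called, with a median log2 fold change of 0.018, and Rps3a1, also outside it, was at 976 and 888 CPM in WT 4 and WT 5 and at 912 and 866 CPM in cKO 2 and cKO 6. The 20 tested translation factors and other proteins known for TOP messages had a median of -0.072. Eif4b, which helps the helicase eIF4A unwind messages, was at 341 and 322 CPM in WT 4 and WT 5 and at 377 and 396 CPM in cKO 2 and cKO 6, with a log2 fold change of 0.22 (SE 0.11, edgeR adjusted p = 0.757), and Eif3e (-0.17) and Tpt1 (-0.13) had fitted values below 0. The 7 tested host genes of small nucleolar RNAs had a median of -0.023, with Snhg5 at -0.12, Snhg12 at 0.12 and Snhg8 at 0.059.

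Of the 59 ribosome assembly factors 6 had an unadjusted p under 0.05, against 7.11% of all tested genes, and the median log2 fold change was 0.064. Noc2l, which acts in maturation of the large subunit, was at 105 and 106 CPM in WT 4 and WT 5 and at 124 and 134 CPM in cKO 2 and cKO 6, with a log2 fold change of 0.29 (SE 0.11, edgeR adjusted p = 0.630). Las1l (0.28) and Nolc1 (0.27) had similar values. In the 15 tested genes of RNA polymerase I and its factors, which make the ribosomal RNA precursor, the median was 0.11. Polr1b, a core subunit of the enzyme, was at 34.6 and 35.1 CPM in WT 4 and WT 5 and at 42.4 and 49.6 CPM in cKO 2 and cKO 6, with a log2 fold change of 0.40 (SE 0.13, edgeR adjusted p = 0.593), and Polr1a (0.21) and Polr1e (0.26) also had fitted values above 0. The groups did not overlap for Noc2l or Polr1b, and none of these genes passed the test.

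The 19 genes of mTORC1, LARP1 and MYC control, which govern how much ribosomal protein is made, had a median log2 fold change of 0.084, with Mlst8 at 0.38, Mtor at 0.26 and Tsc2 at 0.21. The 12 genes known as p53 targets had a median of -0.047, with Ccng1 at -0.32, Trp53inp1 at -0.15 and Cdkn1a at -0.18. The lowest edgeR adjusted p in these sets was 0.642 for Mlst8 and 0.736 for Ccng1.

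**Figure D5:**
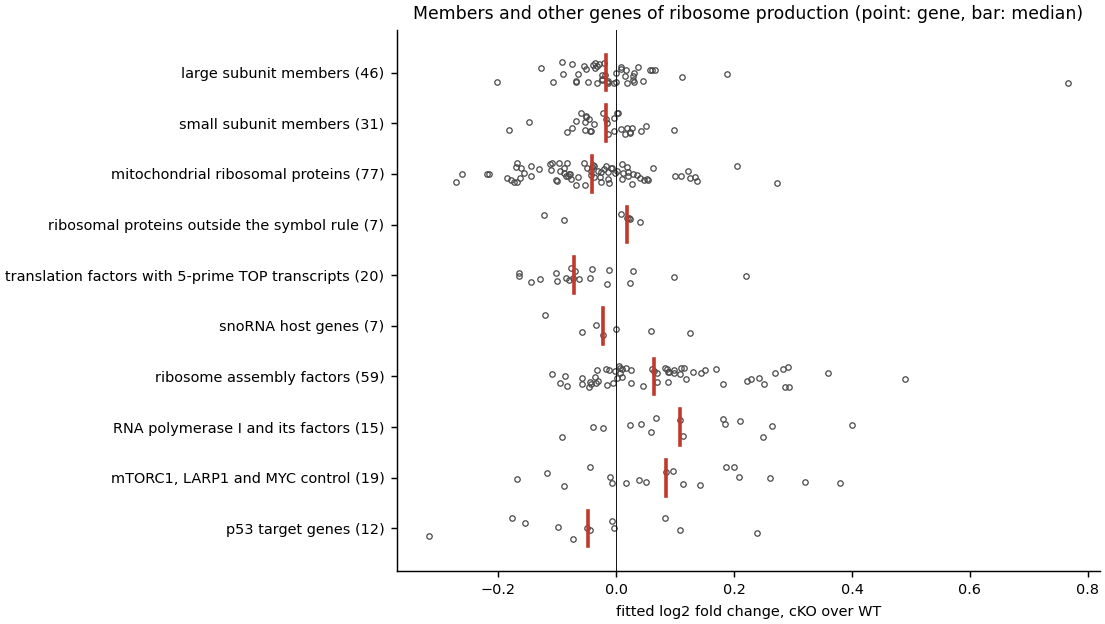
Fitted log2 fold change of cKO over WT (horizontal axis) of each tested gene (points), with the median of each list (red bars) and the number of genes in parentheses. The members and the mitochondrial ribosomal proteins center near 0, and no gene shown passed the test.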

How the data were processed

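For 4 libraries (2 cKO, 2 WT) the authors deposited raw counts, whole numbers for each gene. HTSeq 0.6.0, TopHat2 2.0.12, Bowtie2 2.2.3 and mm9 as genome build are named, without roles, by the submitters' processing notes. Of 26897 gene positions, 92.9% equal those of GENCODE vM21 on GRCm38. No position was converted. No source used here gives the strand setting or the treatment of multiply mapped reads. Columns of the authors' own normalized means, fold changes and p-values were not used, and 0 further count columns were present.

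Counts were tested in R 4.3.3 with edgeR 4.0.16 (filterByExpr, TMM, glmQLFit, glmQLFTest, prior count 0.125, common dispersion 0.0169, no covariate). Library totals were 16962553 to 18205945, so counting error is small except for Rpl24. CPM uses TMM-scaled totals, and intervals are 95% from the t distribution. DESeq2 1.42.0, limma 3.58.1, other scalings and filters, leaving out sex-linked genes and leaving out each library were alternatives. Adding processed copies was chosen after seeing the data. Copies were found with blastn 2.17.0. Start sequences are from RefSeq, and coding sequences from GENCODE. The gene tests were run on simulated counts with larger changes than the members show, and the other steps were not simulated.

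Genes named are, per subunit, called members, the 4 of smallest p, the 3 highest and 2 lowest per length, paralogue pairs, X-linked members, those next to the count minimum and 8 of known role, and up to 3 genes of smallest p per other list. Members and lists were chosen with earlier results of these data known. Values of a few single genes are left out of the text and the plots.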

Additional observations from a re-analysis of the deposited data

How the results depend on the processing

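The count of called members was 0 under every alternative run (other scalings, filters and tools, without sex-linked genes, without each library, and with copies added), and so was that of the translation lists. The count over all tested genes was 32 and became 8 with no filter, 81 with DESeq2's Wald test, 148 with edgeR's likelihood ratio test, and 0 to 292 without single libraries, 0 without WT 5, 292 without WT 4, 260 without cKO 2 and 158 without cKO 6. The cause was not tested, although without a library 1 group rests on a lone sample that is assumed to vary like the other group. The median log2 fold change of the large subunit genes ran from -0.028 to 0.017 without single libraries (0.017 without cKO 2), and that of the small subunit genes from -0.030 to 0.020 (0.020 without WT 4). Rps2 ran from -0.48 to 0.56 without single libraries, each value more than 1 standard error from the reported -0.042, with an unadjusted p under 0.05 in 3 of these 4 fits (without cKO 2, cKO 6 and WT 4) and no call, and 12 of the 25 members named by the rule changed sign under some alternative while uncalled. Under the 15 alternatives 365 of 370 values of those 25, which do not include Rps2, stayed within 1 standard error of the reported value. No paired analysis was possible because the groups share no replicate number. With 2 libraries a group, the 95% interval of a member's change reached a median of 0.24 on the log2 scale to either side.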

Other observations

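The division of WT 5 and cKO 2 from WT 4 and cKO 6 was looked for in every gene of at least 100 counts. Of 13664 such rows, 8 differed at least 4-fold between each library of the former pair and each of the latter, and all 8 are annotated as processed pseudogenes. Of these, 4 are the copies of Rps2 and Rplp0, namely Rps2-ps13, Gm8730, Gm9625 and Gm14165, and Gm14165 held 97 and 1 counts in WT 4 and WT 5 and 0 and 87 in cKO 2 and cKO 6. Among the others, Gm9825 held 901 and 15 counts in WT 4 and WT 5 and 11 and 1102 in cKO 2 and cKO 6, and Gm15487 held 824, 16, 9 and 923 in the same order. The order was the opposite for Gm9855 (40, 291, 535 and 34 counts) and Gm13092 (17, 259, 224 and 14 counts). Each genotype has a library of either kind in these rows, and a cause was not tested.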
